A study of Arabidopsis thaliana with 9 samples.

Results

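The genes described here are 10 loci of Arabidopsis thaliana that serve pattern-triggered immunity, the defence a plant mounts when receptors at its cell surface detect microbial or damage signals. They were chosen by name and locus, with earlier results of these data known, although the rule itself uses no measured value. They are the receptors FLS2, EFR, PEPR1, PEPR2 and CERK1, the co-receptors BAK1 and BKK1, the cytoplasmic kinase BIK1, the oxidase RBOHD and the response gene FRK1. All 10 were found among the 27444 protein-coding genes that RefSeq annotates on the 5 nuclear chromosomes of the TAIR10.1 assembly. A gene was said to hold a summit when the summit of a LEAFY (LFY) peak lay inside the gene or up to 3 kb upstream of its start.

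The data were obtained by chromatin immunoprecipitation and sequencing (ChIP-seq) with antibodies against LFY, the helix-turn-helix transcription factor that directs flower formation. The tissue was root callus of accession Landsberg erecta, taken from seedlings of 3 weeks whose roots had been kept for 5 days on callus inducing medium. All 9 samples carried 35S:LFY-GR, in which a constitutive viral promoter drives LFY joined to the hormone-binding part of the glucocorticoid receptor, so that LFY enters the nucleus once dexamethasone (dex) is given and is present far outside its usual floral domain. There were 3 ChIP samples treated with 5 µM dex, 3 mock-treated ChIP samples and 3 inputs, where input is chromatin without antibody selection. Treatment lasted 1 h by the labels of the samples and by the study's methods for LFY ChIP-seq, whereas the series as a whole is described with 24 h.

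The values come from 1 list of peaks, called after the 3 dex libraries had been pooled, with the 3 pooled mock libraries as control. No value therefore has an error between replicates, no test between samples could be run, and every interval below covers counting error in the pooled reads only. The list held 1177 nuclear peaks, with a median fold enrichment of 4.04 (range 2.23 to 18.6) and a median of 114 dex reads at the summit (range 72 to 701). The mock background at a summit could not fall below a genome-wide floor of 17.97 reads, and at that floor the list began at 72 dex reads, a depth-scaled ratio of 3.16. This limit moves with the local background, and lower ratios passed where more mock reads were present. A gene without a summit may therefore hold enrichment too weak for its own background at this depth. AP1, the floral target of LFY, held 2 summits, the stronger at 164 bp upstream, whereas the nearest summit to the actin gene ACT7 lay 5378 bp away.

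In the immune pathway, surface receptor kinases such as FLS2, EFR and the PEPR receptors bind a microbial or plant-derived molecule. They recruit a co-receptor of the SERK family and pass the signal to cytoplasmic kinases such as BIK1. These kinases activate RBOHD, which produces reactive oxygen, and a MAP kinase cascade drives transcription of response genes. LFY has been linked to immunity as well as to flowering, through weaker responses to bacterial flagellin.

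LFY summits were found at 3 of the 10 genes, EFR, BAK1 and BIK1, and at none of the other 7. By role these were 1 of 5 receptors, 1 of 2 co-receptors and the cytoplasmic kinase, and neither RBOHD nor FRK1 held a summit. For reference, 4.32% of all protein-coding genes (1185 of 27444) held a summit by the same rule. The 3 summits lay 1066 bp upstream of EFR, 692 bp upstream of BAK1 and 657 bp upstream of BIK1, none of them inside an annotated gene. No member held more than 1 summit.

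The sequence under each of the 3 summits is given because these are the stretches where LFY was enriched. Each is written 5′ to 3′ in the direction of the immune gene, from up to 100 bases before the summit to 100 after it. A stretch is cut at the edge of an annotated gene, which is the long noncoding RNA AT5G03125 at EFR and AT4G33440 at BAK1. The 11 bases centred on the summit are in capitals. EFR is chr5:6920403-6920543 on the plus strand, BAK1 is chr4:16091424-16091534 on the minus strand and BIK1 is chr2:16530770-16530970 on the plus strand, all of RefSeq TAIR10.1. The genome is that of accession Columbia, so a base that differs in Landsberg erecta is shown as in Columbia.
EFR: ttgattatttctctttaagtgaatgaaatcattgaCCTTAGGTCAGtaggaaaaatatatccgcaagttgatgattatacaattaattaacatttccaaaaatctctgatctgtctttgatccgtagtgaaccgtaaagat
BAK1: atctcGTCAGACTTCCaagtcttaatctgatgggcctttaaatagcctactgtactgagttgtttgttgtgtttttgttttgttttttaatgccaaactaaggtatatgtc
BIK1: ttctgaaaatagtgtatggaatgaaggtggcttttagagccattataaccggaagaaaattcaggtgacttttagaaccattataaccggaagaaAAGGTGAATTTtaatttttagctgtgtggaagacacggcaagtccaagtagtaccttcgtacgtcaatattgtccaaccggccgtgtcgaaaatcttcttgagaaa

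EFR (AT5G20480, chr5:6921509-6925901, plus strand) encodes the receptor kinase for the bacterial elongation factor Tu, and it had the strongest LFY enrichment of the 10 genes. Its peak spanned 561 bp, chr5:6920117-6920677, with the summit at position 6920443. The summit held 330 dex reads over 28 mock reads, both counted in the same 138 bp window. The ratio after scaling for depth was 9.29 (95% exact conditional interval 6.31 to 14.2). The deposited fold enrichment was 9.0, rank 63 of 1177, and the deposited −log10 q-value was 148, rank 48. By dex reads it ranked 50. EFR thus lay among the stronger peaks of the list by all of these measures.

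BAK1 (AT4G33430, chr4:16086311-16090832, minus strand) encodes the co-receptor that FLS2, EFR and the PEPR receptors recruit, and it also serves the brassinosteroid receptor BRI1. Its peak covered 525 bp, chr4:16091309-16091833, with the summit at 16091524. The summit held 180 dex reads over a background of 19.2 mock reads, which the peak caller took from the surrounding 10 kb. The ratio was 7.40 (95% exact Poisson interval of the dex reads 6.36 to 8.56). The deposited fold was 7.08, rank 135, and the −log10 q-value was 68.0, rank 179. The interval overlapped that of EFR, so the ratios of EFR and BAK1 were not distinguishable by counting error.

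BIK1 (AT2G39660, chr2:16531527-16533986, plus strand) encodes a cytoplasmic kinase that associates with the receptor complexes and phosphorylates RBOHD. Its peak was the narrowest of the 3, 267 bp at chr2:16530736-16531002, with the summit at 16530870. The summit held 74 dex reads over a background of 18.8 mock reads taken from the surrounding 1 kb. The ratio was 3.11 (95% exact Poisson interval of the dex reads 2.44 to 3.90), and this interval lay below those of EFR and BAK1. The deposited fold was 3.00, rank 1097 of 1177, and the −log10 q-value was 10.3, rank 1147, just inside the authors' minimum of 10. BIK1 was thus near the weakest end of the list, and its ratio and interval take no account of selection at that minimum. With a stricter minimum of 20, EFR and BAK1 still held a summit and BIK1 did not.

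**Figure D1:**
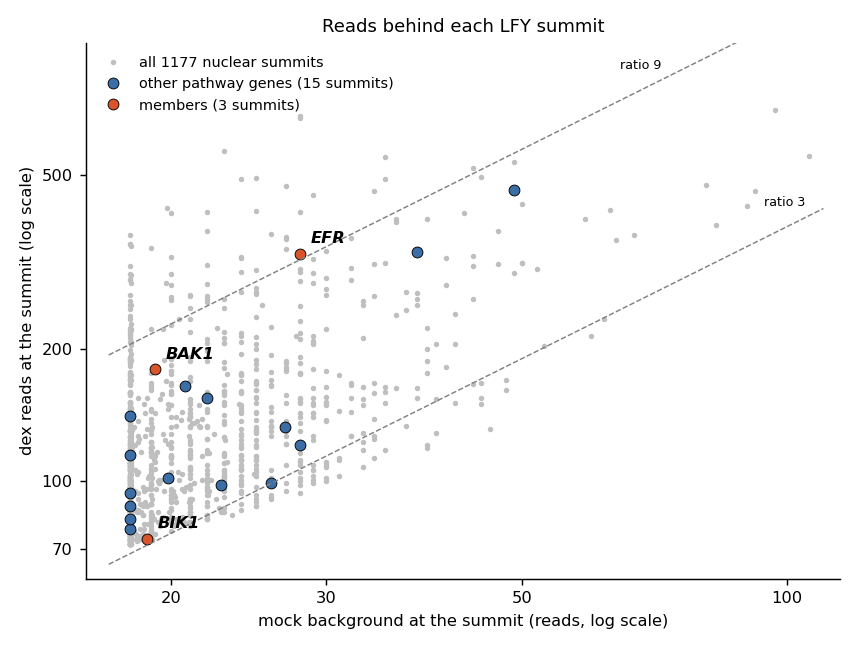
Dex reads against mock background reads at each nuclear summit, both on log axes, with dashed lines at depth-scaled ratios of 3 and 9. Grey points are all 1177 summits, blue points the 15 summits of other pathway genes and red points the 3 members, with EFR (330 dex reads) on the line for a ratio of 9, BAK1 (180) between the lines and BIK1 (74) at the lower edge of the cloud.

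All 3 summits lay in a stretch bounded on both sides by the start of a protein-coding gene, with the immune gene on one side and a gene of the opposite strand on the other. The starts of EFR and HDK (AT5G20470), which encodes a headless myosin, were 1389 bp apart, and the summit was 323 bp from HDK and 1066 bp from EFR. The starts of BAK1 and AT4G33440, a pectin lyase-like gene, were 703 bp apart, and the summit was 11 bp from AT4G33440. The starts of BIK1 and AT2G39650, a DUF506 gene, were 2033 bp apart, and the summit was 1376 bp from AT2G39650. The summit was therefore nearer to the facing gene at EFR and BAK1 and nearer to the immune gene at BIK1. Which gene of a pair a summit serves cannot be told from its position. At EFR, 2 long noncoding RNAs are annotated as well: AT5G03125 ended 41 bp from the summit, and AT5G03135, antisense to EFR, lay 791 bp from it.

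Facing starts were counted across the genome after the positions of the 3 summits had been seen, so the counts are a description. A facing protein-coding start within 3 kb was present at 5 of the 10 members, against 39.2% of protein-coding genes. Besides EFR, BAK1 and BIK1 these were FLS2, which faces the MADS-box gene AT5G46320 at 2665 bp, and PEPR1, which faces AT1G73065 at 2069 bp, and neither stretch held a summit. Of all genes with a facing start, 3.57% held a summit. Of all genes with a summit, 21.2% had it between facing starts.

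**Figure D2:**
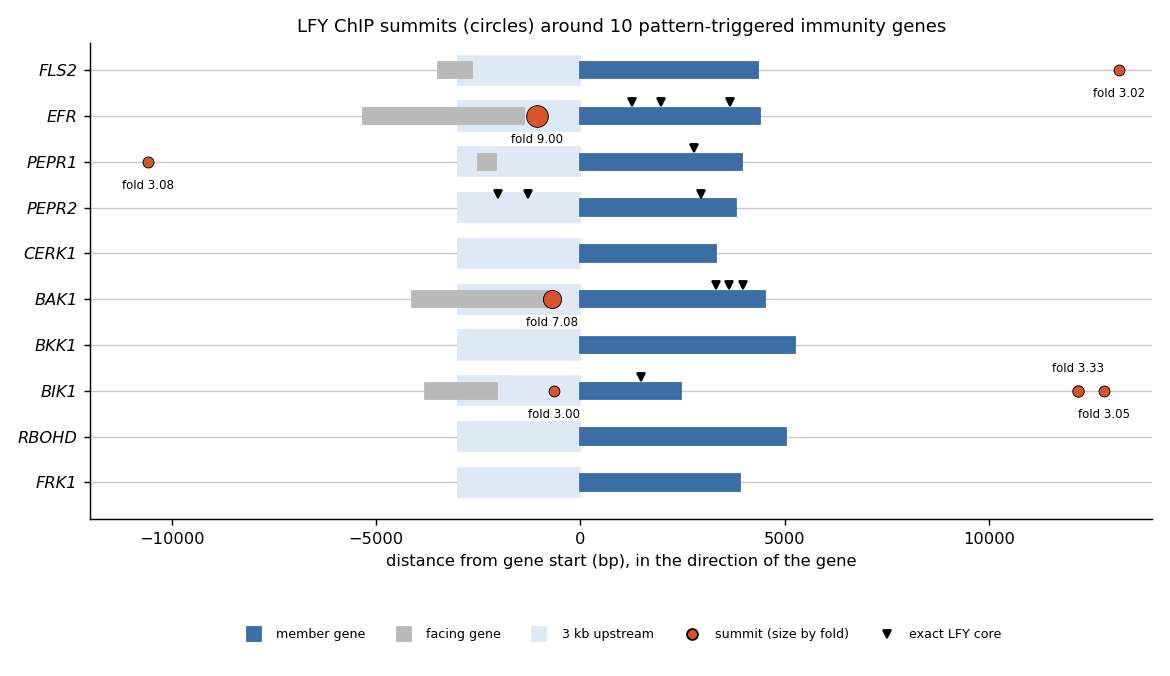
Map of the 10 loci aligned at the gene start, with distance in bp in the direction of the gene on the x axis, the gene in blue, the facing gene in grey, the 3 kb upstream stretch shaded, LFY summits as circles sized by fold and exact LFY cores as triangles. Only EFR (fold 9.0), BAK1 (7.08) and BIK1 (3.00) have a summit in the shaded stretch, and the cores lie away from all 3.

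FLS2 (AT5G46330, chr5:18791575-18795908, plus strand) encodes the receptor for flagellin and held no summit. The nearest lay 8847 bp past the end of the gene, with 76 dex reads over 19.2 mock reads, a fold of 3.02 and a −log10 q-value of 10.4. That summit was 699 bp upstream of WRKY8, a WRKY transcription factor gene. In the other direction no summit was found for 804213 bp. FLS2 was the member whose nearest summit came closest to the gene without meeting the rule, while EFR at 1066 bp was the farthest of those that met it.

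The receptors for the plant's own Pep danger peptides were also without a summit. The nearest to PEPR1 (AT1G73080, chr1:27484240-27488204, plus strand) lay 10578 bp upstream, with a fold of 3.08 and 83 dex reads, and was 2 bp upstream of the anoctamin-like gene AT1G73020. PEPR2 (AT1G17750, chr1:6106323-6110120, plus strand) was the most remote of all members, with its nearest summit 220990 bp past the gene end. That summit had a fold of 3.58 with 85 dex reads and lay 288 bp upstream of BEE1, a brassinosteroid-responsive transcription factor gene. PEPR2 was the only member with no summit within 100 kb.

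CERK1 (AT3G21630, chr3:7615357-7618671, minus strand), the LysM receptor kinase of chitin perception, had its nearest summit 22174 bp upstream. It held 131 dex reads over 25 mock reads, a fold of 4.01, and lay in the coding sequence of the efflux carrier gene AT3G21690. BKK1 (AT2G13790, chr2:5741592-5746833, plus strand), the paralog of BAK1 that RefSeq lists as SERK4, had its nearest summit 85290 bp past the gene end. That summit had a fold of 9.30, above that of EFR, with 223 dex reads, fewer than at EFR. It lay 916 bp upstream of AT2G13900, a C1 domain gene.

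RBOHD (AT5G47910, chr5:19397041-19402061, plus strand), the oxidase of the immune reactive oxygen burst, had its nearest summit 88113 bp upstream. It had a fold of 3.00 with 109 dex reads and was 299 bp upstream of NF-YB2, a gene for a subunit of the NF-Y complex. FRK1 (AT2G19190, chr2:8326049-8329944, minus strand), a receptor-like kinase gene widely used as a readout of flagellin signalling, had its nearest summit 56683 bp past the gene end. That summit had a fold of 4.68 with 133 dex reads and lay 950 bp upstream of AT2G19090, a DUF630 gene. At 6 of the 10 members no summit was found within 10 kb of the gene. Most protein-coding genes also had none within 10 kb, since the lower quartile of their distances was 15978 bp. The count of 6 is thus no sign that the members are remote from summits.

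Over the 10 members the distance from the gene to the nearest summit had a median of 16376 bp, with a lowest value of 657 bp and a highest of 220990 bp. Over all protein-coding genes the median was 41147 bp, with quartiles of 15978 and 90903 bp. EFR, BAK1, BIK1, FLS2 and PEPR1 were below the lower of these quartiles, CERK1, BKK1, RBOHD and FRK1 fell between them, and PEPR2 was above the upper.

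**Figure D3:**
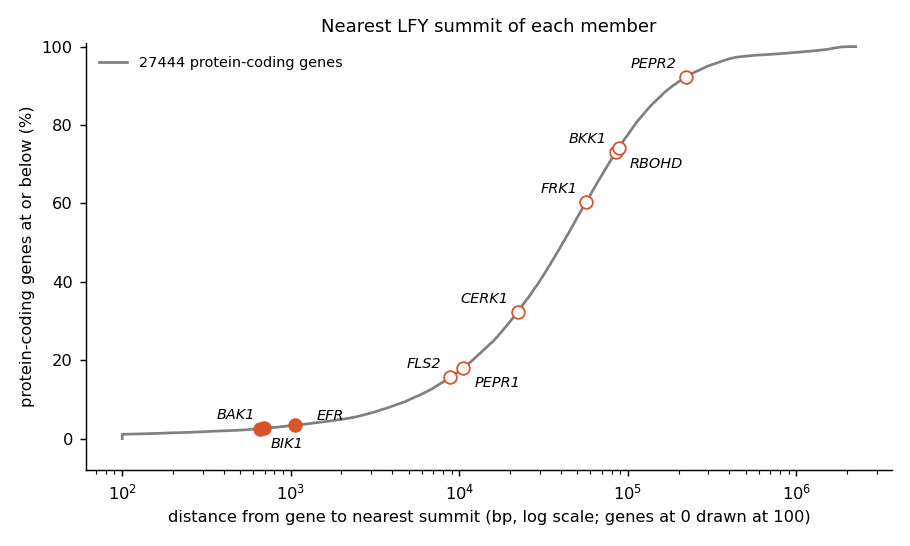
Cumulative share of protein-coding genes, in percent, against the distance from the gene to its nearest LFY summit in bp on a log axis, with the 10 members marked on the curve as filled circles where they hold a summit and open circles where they do not. BIK1, BAK1 and EFR sit at 657, 692 and 1066 bp, and PEPR2 sits at 220990 bp.

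To relate the summits to the sequence that LFY recognises, the core CCANTGG was searched in each gene and its 3 kb upstream. N is any base, and the core is its own reverse complement apart from N, so a match on either strand is a match on both. An exact core was present at 5 of the 10 members, against 56.4% of protein-coding genes. EFR, PEPR2 and BAK1 had 3 cores each, PEPR1 and BIK1 had 1 each, and FLS2, CERK1, BKK1, RBOHD and FRK1 had none. Of the 11 cores, 8 were in coding sequence, 1 was in an intron of BAK1 and 2 were upstream of PEPR2. In the 3 kb upstream alone, PEPR2 was the only member with a core, against 35.4% of protein-coding genes, and both of its cores fell in exons of the neighbouring gene PGDH.

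None of the 11 cores was near a LFY summit. The smallest distance was 2132 bp, from the BIK1 core to the BIK1 summit. The core nearest to the summit in each of the 3 genes with a summit, and the 2 upstream cores of PEPR2, are given because they are the places where the consensus is found without a summit on it. They are written in the direction of the gene with the core in capitals and 10 bases on each side. In RefSeq TAIR10.1 they lie at chr5:6922761-6922787 (EFR, coding sequence, plus strand), chr4:16087489-16087515 (BAK1, intron, minus strand), chr2:16532989-16533015 (BIK1, coding sequence, plus strand), chr1:6104280-6104306 and chr1:6105037-6105063 (PEPR2, 2030 and 1273 bp upstream, plus strand).
EFR: atctcaccctCCATTGGtaatctctcc
BAK1: atatttccgtCCAATGGttgccttttt
BIK1: tagagacggtCCAATGGgtgatttgag
PEPR2, 2030 bp upstream: cgtcaatgctCCAATGGtggctcctga
PEPR2, 1273 bp upstream: ggtgttttatCCAGTGGttgttaagct

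Within 150 bp of the summit an exact core was present at 0 of the 3 member summits, against 13.1% of all nuclear summits. With up to 1 mismatch allowed, matches were present at 1 of the 3, against 73.6% of nuclear summits. The summit of EFR had 2 such matches, and the nearer, at 98 bp from it, lies at chr5:6920332-6920358. This match falls inside the long noncoding RNA AT5G03125, so it is not in the EFR sequence printed above. It is given with its 7 bases in capitals and 10 bases on each side. BAK1 and BIK1 had no match even with 1 mismatch. The absence of these letters says nothing of how LFY came to be enriched there.
EFR, 1 mismatch: agagaatttcCCACTTGgcctctaaac

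To place the members in their pathway, 94 further genes of pattern-triggered immunity were listed by role. Of these, 14 held a summit (14.9%), against 4.32% of all protein-coding genes, with 15 summits in all, 12 upstream and 3 inside the gene. Their folds ran from 2.93 to 7.28 with a median of 3.90, so all 15 were below EFR and 1, that of PBL2, was above BAK1. As in all lists here, the genes were chosen with earlier results of these data known, and the counts carry no test. The counts by role that follow are small, from 7 to 23 genes per role, and stand beside the same 4.32%. None of them is read as a result about its role.

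Among receptors and their partners, 2 of 23 genes held a summit (8.7%). DORN1, the receptor for extracellular ATP, had a summit in an intron with 165 dex reads over 20.8 mock reads, a fold of 6.02, and that summit was also 347 bp upstream of AT5G60310. AT1G74360, annotated as a leucine-rich repeat kinase, had a summit 1775 bp upstream with a fold of 2.93, which lay nearer to DPMS2, at 686 bp upstream, and AT1G74350, at 941 bp upstream. No other paralog of BAK1 held a summit: the nearest was 21778 bp from SERK1, 196021 bp from SERK2 and 74770 bp from SERK5. BIR2, which keeps BAK1 from receptors before a signal arrives, had a summit 173 bp past its end, outside the rule, with a fold of 3.25.

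Among cytoplasmic kinases, calcium-dependent kinases and oxidases, 4 of 19 genes held a summit (21.1%). PBL2, a kinase of the BIK1 family, had a summit 1464 bp upstream with 461 dex reads over 49 mock reads, a ratio of 7.41 (95% exact conditional interval 5.51 to 10.2). This interval lay above that of BIK1, and the same summit was 860 bp upstream of UTR3, a nucleotide-sugar transporter gene. PBL1, the closest paralog of BIK1, had summits 1080 bp upstream and 193 bp inside the gene, with folds of 3.79 and 3.90. Their ratio intervals, 3.26 to 4.61 and 3.30 to 4.91, overlapped that of BIK1. RBOHF, the oxidase most often studied beside RBOHD, had a summit 803 bp upstream with 78 dex reads and a fold of 3.29. CPK11, a calcium-dependent kinase, had a summit 1716 bp upstream with a fold of 3.32.

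Among negative regulators, 2 of 12 held a summit (16.7%). PUB22, a ubiquitin ligase that dampens immune responses, had a summit 623 bp upstream with a fold of 3.96. RALF23, a peptide that limits receptor complex formation, had a summit inside the gene, 1766 bp after its start, with a fold of 5.35. In the MAP kinase cascade the count was 2 of 13 (15.4%). MAPKKK5 had a summit 609 bp upstream with a fold of 3.71. The summit assigned to the MAP kinase gene MPK11, with a fold of 3.29, lay 2551 bp upstream inside an exon of BPS1.

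None of the 7 precursors of danger peptides held a summit. The closest was PROPEP3, the precursor of a peptide that PEPR1 and PEPR2 bind, where a summit with a fold of 3.47 lay 259 bp past the gene end. The neighbouring PROPEP1 was 2163 bp from the same summit. With 7 genes and the share of 4.32% over all protein-coding genes, a count of 0 is no result about these precursors.

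Among response genes, 4 of 20 held a summit (20%). MYB51, a regulator of indole glucosinolate synthesis, had a summit 657 bp upstream with 334 dex reads over 38 mock reads, a ratio of 6.92 (95% exact conditional interval 4.94 to 9.96). WRKY11, a WRKY transcription factor gene of basal resistance, had a summit 681 bp upstream with a fold of 5.91. MYB15, a regulator of lignin synthesis in immunity, had a summit 2239 bp upstream with a fold of 4.83. ICS1, which makes the precursor of salicylic acid and is listed by RefSeq as EDS16, had a summit 2527 bp upstream with a fold of 3.46.

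An exact core lay within 150 bp of 2 of the 15 pathway summits, and a core with up to 1 mismatch lay near 14 of 15. Over all nuclear summits the shares were 13.1% with an exact core and 73.6% with up to 1 mismatch. With only 3 member summits, no contrast in exact cores between members and pathway genes can be drawn. The 2 exact cores are given in the direction of the gene with the core in capitals. The WRKY11 core, chr4:15292587-15292613 on the minus strand, was 15 bp from its summit. The AT1G74360 core, chr1:27952284-27952310 on the plus strand, was 57 bp from its summit.
WRKY11: tttcgaaaatCCAGTGGttcatataag
AT1G74360: ttgaatttgaCCAATGGaaacatcaaa

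**Figure D4:**
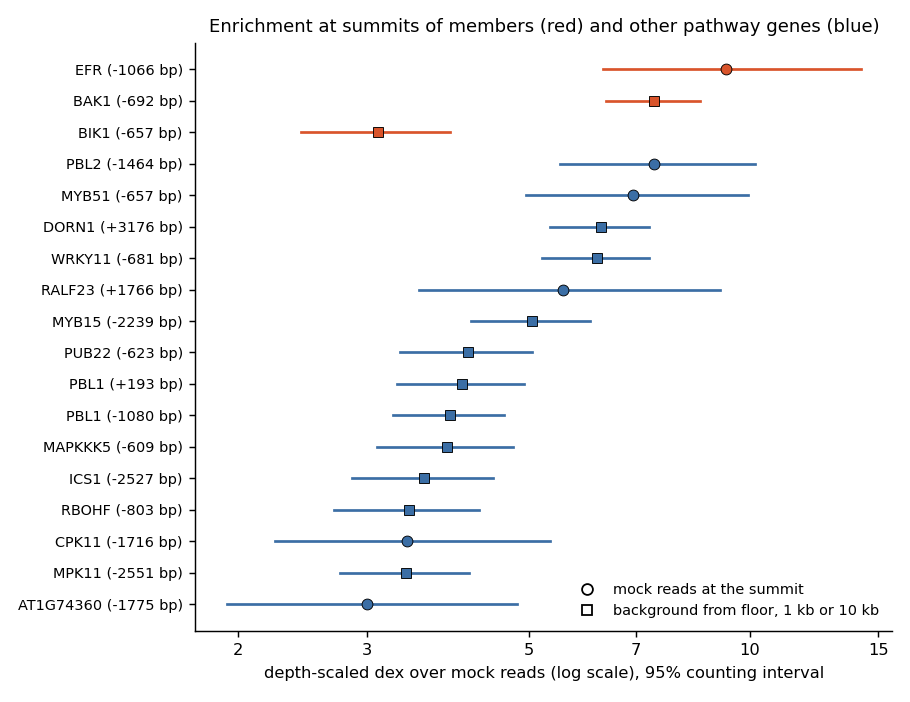
Depth-scaled ratio of dex over mock reads, on a log axis, at each summit of the members (red) and other pathway genes (blue), with 95% intervals for counting error and the distance from the gene start in brackets. Circles have mock reads counted at the summit and intervals that include their error, squares have a background from the floor, 1 kb or 10 kb and intervals for the dex reads only; EFR is highest at 9.29 and BIK1 is at 3.11.

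For comparison, 18 receptor kinases with leucine-rich repeats that act in development, the same protein class as FLS2, EFR, PEPR1 and PEPR2, were counted by the same rule. Of these, 4 held a summit (22.2%), so a share above that of all protein-coding genes was found outside immunity too. BRL1, a brassinosteroid receptor, had its stronger summit 576 bp upstream with 391 dex reads over 36 mock reads and a fold of 8.35. BRI1, the main brassinosteroid receptor and a partner of BAK1, had a summit 2935 bp upstream with a fold of 6.63. HAE, a receptor of organ abscission, had a summit 151 bp upstream with a fold of 5.14 and an exact core 6 bp from it. BAM3, a relative of CLV1, had 2 summits at 1536 and 2981 bp upstream with folds of 3.46 and 3.13. With 3 of 10, 14 of 94 and 4 of 18 genes, the counts give no ground to call a LFY summit particular to the 10 immune genes.

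**Figure D5:**
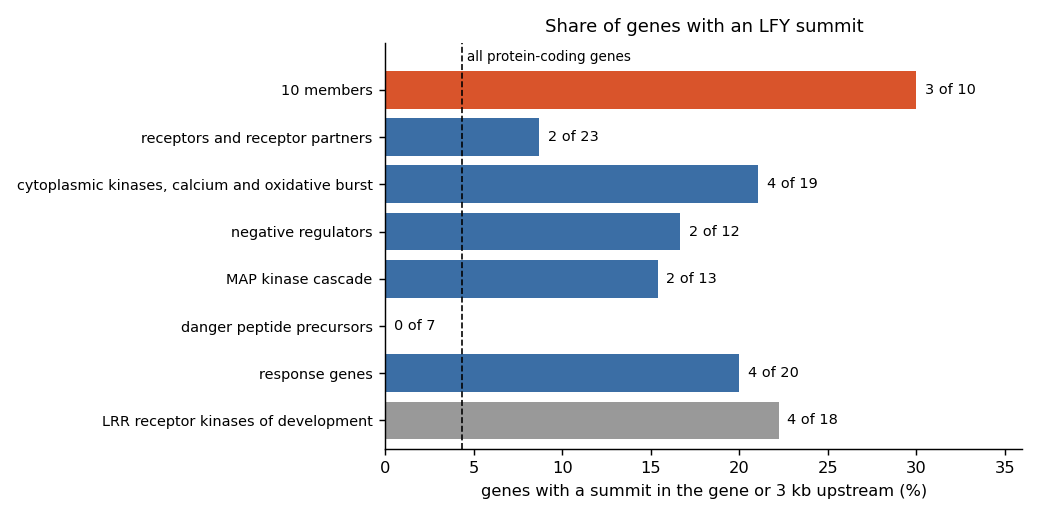
Percent of genes with a LFY summit in the gene or 3 kb upstream, for the members, the other pathway genes by role, the receptor kinases of development and all protein-coding genes, with the counts beside each bar. The members are at 3 of 10, the pathway roles between 0 of 7 and 4 of 19, and all protein-coding genes at 4.32%.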

How the data were processed

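LFY was immunoprecipitated from root callus in 3 dex and 3 mock samples, with 3 inputs that were not used in peak calling. By the study's account, reads were trimmed, uniquely mapped to TAIR10 with Bowtie2, and peaks were called by MACS2 on pooled dex over pooled mock libraries, with automatic duplicate handling and a minimum −log10 q-value of 10 at the summit. The submitters' processing notes name Trimmomatic 0.36, FastQC 0.11.5, Bowtie2 2.3.1, SAMtools 1.7, Picard 2.9.4, MACS2 2.1.1.20160309 and bedtools. The methods give other versions of Trimmomatic and MACS2.

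The authors deposited, for each of 1181 peaks, a fold enrichment, which is the ratio of the dex pileup plus 1 to the mock background plus 1, and −log10 p-values and q-values of a Poisson test. Reads at each summit were recovered by solving fold and p-value together under the MACS2 model. Every peak was solved, 10 of them with several solutions, none at a member, and on 300 simulated peaks 100% were solved correctly. The simulated peaks were drawn from the same model, so they check the solving step only. Whether the deposited values follow that model was not tested by them. The background is the highest of 4 estimates (floor, 138 bp, 1 kb, 10 kb of mock reads), which by itself lowers a ratio. Only peaks that passed the q-value minimum are in the list, which favours high ratios for peaks near that limit. The intervals do not cover this selection, so the ratios are not conservative values. Dex reads were scaled by 0.788. Intervals are exact conditional (Clopper-Pearson) where mock reads came from the summit window, and exact Poisson for dex reads otherwise. Reads carry no molecular identifiers. How deeply each library was sequenced is unknown here.

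Genes and sequence were taken from RefSeq TAIR10.1, the assembly the peaks use, with positions counted from 1. Of the 94 pathway names, 84 matched a symbol or synonym there, and all genes were taken by locus. All members were named with their values, as were other pathway genes with a summit (up to 15), comparison genes with a summit (up to 5) and the gene next to each remaining nearest summit. BIR2, PROPEP1, PROPEP3, and the SERK paralogs were added after their values were seen. The members and all lists were chosen with earlier results of these data known. Python 3.11.15, numpy 2.4.6, pandas 2.3.3, scipy 1.17.1 and matplotlib 3.10.9 were used. Alternatives covered the distance rule, the q-value minimum, the gene classes, the core search and the deposited fold.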

Additional observations from a re-analysis of the deposited data

How the results depend on the processing

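No paired analysis was possible because the libraries were pooled before peaks were called, and for the same reason no replicate could be left out. The count of 3 members was the same with 5 or 10 kb upstream, with 3 kb downstream added and with the whole peak in place of the summit. It was 2 with 1 kb upstream (BAK1 and BIK1) and with the minimum −log10 q-value raised to 20 or 50 (EFR and BAK1). The 14 pathway genes became 8 with 1 kb upstream, 9 at a q-value minimum of 20 and 3 at 50. They became 15 with 5 kb upstream, 18 with 10 kb and 19 with 3 kb downstream added, and stayed at 14 with the whole peak. The share of protein-coding genes, 4.32%, became 2.43% with 1 kb, 6.13% with 5 kb, 10.2% with 10 kb and 6.61% with 3 kb downstream added. It was 4.59% with the whole peak, 2.72% at a minimum of 20 and 0.998% at 50. The median distance of the members to a summit, 16376 bp, became 66209 bp at 20 and 100718 bp at 50. A stricter minimum leaves fewer summits for every gene, and no median over all protein-coding genes is given at 20 or 50. These 2 distances are therefore not comparable with the 41147 bp of all protein-coding genes on the full list. The 5 members with an exact core became 10 with 1 mismatch allowed, 1 in the 3 kb upstream alone and 0 in the 1 kb upstream. With 1 mismatch allowed, each member had from 10 (FRK1) to 31 (PEPR2) matches. No share over all protein-coding genes is given for 1 mismatch or for 1 kb. The counts of 10 and 0 are therefore no result about the members. The ratios at EFR, BAK1 and BIK1 and the deposited folds differed by less than the counting intervals. The ratios were recovered from these same folds, so this is no independent check.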

Other observations

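The stretch TTGAC, a part of the W-box that WRKY transcription factors of the immune response bind, was searched on both strands in the 201 bases centred on each summit. It was present at EFR, 7 bp from the summit, and at BIK1, 59 bp from the summit, and not at BAK1. The bases beside TTGAC were not searched across the summits, so a match is not shown to be a full W-box. In the sequences given above, TTGAC is followed by C at EFR and, on the opposite strand, by G at BIK1. Over all nuclear summits the share was 52.1%, against 36.2% in windows centred 1000 bp to the left and 34.3% to the right. The GC content of the same windows was 33.8% at EFR and 38.8% at both BAK1 and BIK1, beside a median of 34.3% over all summits.

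The window at BIK1 holds a stretch of 35 bases that recurs 38 bases further on, with 33 of the 35 bases identical. The copies lie just before the summit, in the direction of the gene.
First copy: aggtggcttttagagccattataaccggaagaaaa
Second copy: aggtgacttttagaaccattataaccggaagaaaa

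The member loci also differ in how many summits surround them. Within 100 kb of the gene, EFR had 7 summits and BIK1 had 6, PEPR1 and CERK1 had 3 each and BAK1 had 2. FLS2, BKK1, RBOHD and FRK1 had 1 each and PEPR2 had 0. The members with and without a summit of their own overlapped in this count. The count includes the summit that EFR, BAK1 and BIK1 each hold, so it is not independent of the rule. No count over all protein-coding genes is given beside it, and it is a description only. The nearest summit past the end of BIK1 lay at 9726 bp, and that past the end of EFR at 21134 bp.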
